A study of Mus musculus with 144 samples.

Results

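The enzymes that build heme and that reduce its breakdown product biliverdin were followed through a time course of primary mouse hepatocytes exposed to TCDD, the dioxin 2,3,7,8-tetrachlorodibenzo-p-dioxin and a persistent ligand of the aryl hydrocarbon receptor. The members were listed by name: Alas1, Alad, Uros, Urod, Cpox, Ppox and Fech of the synthesis pathway and the biliverdin reductases Blvra and Blvrb, 9 genes of the 55359 counted. Other enzymes of the pathway were not analysed here. The series held 36 groups of 4 bulk RNA-Seq libraries and asked how a dioxin response element (DRE, the DNA motif bound by the activated receptor) within Pkm shapes the response to TCDD. Hepatocytes came from male mice aged 28 days, either C57BL/6NCrl (labelled WT) or the Pkm-delta-DRE strain (labelled PkmΔDRE), a homozygous line in which genome editing had removed an intronic DRE of Pkm. All cells, vehicle cells included, were plated on collagen in a medium with serum, ascorbic acid and dexamethasone, a synthetic glucocorticoid, and were then switched to serum-free medium containing dimethyl sulfoxide vehicle or 10 nM TCDD. They were harvested on the first day at 2, 4, 8, 12 and 24 h and then once a day up to 120 h, so that time under treatment was also time in culture. The labels do not state whether libraries of a group came from separate animals or cultures, and p-values measure only the spread between these libraries.

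Heme is made from glycine and succinyl-CoA in a chain of enzymatic steps that starts and ends in mitochondria and runs through the cytosol in between. The first step, catalysed in the liver by the product of Alas1, is rate-limiting and is held in check by heme itself, and hepatocytes direct much of their heme to cytochrome P450 enzymes such as those induced by the aryl hydrocarbon receptor. Alad condenses the product of the first step into a pyrrole, Uros forms the uroporphyrinogen ring and Urod acts on it. Cpox and Ppox carry out the oxidations that follow, and Fech inserts iron. Heme breakdown gives biliverdin, which is reduced to bilirubin. Blvra and Blvrb encode reductases named for biliverdin, and they are not taken here as equivalent enzymes. TCDD is known as a porphyrinogenic agent in mouse liver, where uroporphyrin accumulates and the activity of the Urod enzyme falls.

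The libraries held between 13588848 and 30719161 counts on genes, with a median of 18011825. Cyp1a1, a cytochrome P450 and a direct target of the receptor, rose with TCDD by 6.10 (SE 0.73) on the log2 scale averaged over hours in libraries labelled WT and by 7.75 (SE 0.57) in those labelled PkmΔDRE. Pkm, which encodes pyruvate kinase M and is the gene whose DRE was removed, went against the labels. It rose by 0.61 (SE 0.18, edgeR adjusted p = 0.0367) under the label PkmΔDRE, where the element should be missing, and had an averaged difference of -0.26 (SE 0.17, adjusted p = 0.23) under the label WT, so the names below stand for labels only. Cyp1a1 also went against the treatment label of 4 libraries labelled WT. Vehicle at 48 h replicate 1 and vehicle at 96 h replicate 3 were at 3285 and 1717 counts per 1000000 after TMM scaling over all libraries (CPM), while TCDD at 2 h replicate 4 and TCDD at 72 h replicate 4 were at 1.15 and 29.2 CPM. Of the libraries labelled PkmΔDRE, vehicle at 4 h replicate 4 had summed hepatocyte markers of 11097 CPM. Vehicle at 96 h replicate 4 had 108121 CPM. The other 3 libraries of each group held 120208 to 138809 and 13404 to 15889 CPM. Summed cholangiocyte markers were at 936 and 35.8 CPM in this pair. They were at 29.8 to 46.5 and 847 to 899 CPM in the others of each group. In both sums each of the pair was nearer to the other's group. Whether the pair was exchanged was not tested. Alb, the hepatocyte marker albumin, was at 1967 CPM or more in every library of the series, and 9 erythroid markers summed to at most 3.11 CPM. In bulk RNA, fewer cells of a type and less RNA per cell cannot be told apart.

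Per kilobase of exon, the first enzyme stood at the top of the members and the oxidases at the bottom. Averaged over the 9 hours in vehicle libraries labelled WT, Alas1 was at 54.97 CPM per kb, Blvrb at 42.4, Alad at 36.1 and Urod at 29.5. The remaining 5 members were lower, with Fech at 9.50, Blvra at 6.92, Uros at 4.79, Cpox at 4.48 and Ppox at 3.73 CPM per kb. The neighbours Uros, Cpox and Ppox had overlapping ranges of group means, from 3.93 to 5.93, from 2.55 to 6.63 and from 2.90 to 4.34 CPM per kb. Under TCDD, Cpox was at 8.599 CPM per kb and stood 6th, above Blvra and Uros. In vehicle libraries labelled PkmΔDRE, Blvrb at 40.2 stood above Alas1 at 39.2 and Alad at 38.5 CPM per kb.

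Cpox, coproporphyrinogen oxidase, was the member that rose with TCDD. It was higher than vehicle at 9 of 9 hours under the label WT and at 8 of 9 under the label PkmΔDRE, and averaged over hours it rose 1.86-fold and 1.82-fold. A gene was called where the edgeR adjusted p was under 0.05 and the fold change at least 1.5, with no fold threshold for differences averaged over hours. The RefSeq annotation (GRCm38.p6) places the upstream bases of Cpox on the plus strand at chr16:58669958-58670207, shown because Cpox carries the largest response. The capitals mark the 5-letter core GCGTG of the DRE, 39 bases before the start.

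Cpox: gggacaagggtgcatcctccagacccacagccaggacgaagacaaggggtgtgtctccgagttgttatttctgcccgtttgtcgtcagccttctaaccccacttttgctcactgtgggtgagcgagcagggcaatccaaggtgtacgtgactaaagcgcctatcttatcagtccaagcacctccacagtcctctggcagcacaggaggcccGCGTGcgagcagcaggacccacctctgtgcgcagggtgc

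The search covered GCGTG and its reverse complement CACGC from 250 bases before to 50 after each annotated start, and GCGTG occurred in 10639 of 32851 mouse promoters (32.4%). Promoters were on file for 8 of the 9 members, 12 entries in all, and 5 of these 8 genes held the core in any of their entries. The share of 32.4% counts entries and not genes, so it is not a like measure. The longer form TNGCGTG, present in 5.07% of all promoters, occurred in none of the 8. A match describes letters in a window and is no measure of binding.

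At 8 h under the label WT, Cpox was at 16.9, 15.7, 19.05 and 16.2 CPM in vehicle and at 26.3, 29.5, 64.05 and 52.8 CPM with TCDD. All 4 TCDD libraries lay above all 4 vehicle libraries, with replicates 3 and 4 well above the others. This gave a log2 fold change of 1.31 (SE 0.26, edgeR adjusted p = 0.0023), a 2.49-fold rise. Of all genes tested at this hour 37.4% were called, so that a call at 8 h was common.

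At 96 h under the label WT, vehicle libraries held 21.3, 21.1, 33.02 and 25.7 CPM of Cpox and TCDD libraries 62.9, 79.9, 89.4 and 70.03 CPM. The groups did not overlap, and replicate 3 was the highest of each. The rise was 3.11-fold, a log2 fold change of 1.64 (SE 0.15, edgeR adjusted p = 9.94e-05), at an hour when 15.1% of genes were called. Without vehicle replicate 3, the library with high Cyp1a1, it was 1.79 (SE 0.13, adjusted p = 1.72e-05).

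At 120 h under the label WT, vehicle libraries held 32.1, 23.8, 44.5 and 25.3 CPM and TCDD libraries 91.4, 87.5, 107.5 and 82.7 CPM, the highest group mean of Cpox in the series at 92.3 CPM. No TCDD library came near the vehicle libraries. Here the log2 fold change was 1.56 (SE 0.19, edgeR adjusted p = 0.00326), and only 1.46% of genes were called at this hour. Between 12 and 72 h the log2 fold changes of Cpox ran from 0.77 to 0.95 with none called by edgeR and that at 24 h called by DESeq2 (0.93, adjusted p = 0.035), although the groups at 72 h did not overlap. At 2 and 4 h the values were 0.09 (SE 0.34) and 0.41 (SE 0.39).

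With the label PkmΔDRE, Cpox at 72 h was at 33.8, 17.1, 22.0 and 17.3 CPM in vehicle and at 81.4, 70.6, 64.5 and 60.6 CPM with TCDD. The lowest TCDD library was well above the highest vehicle library. This was a 2.99-fold rise (log2 1.58, SE 0.25, edgeR adjusted p = 0.00996). It was the one edgeR call among the members at any hour under this label, against 1.13% of all genes called at 72 h. At 96 h the vehicle libraries held 27.9, 31.2, 33.03 and 15.3 CPM and the TCDD libraries 56.8, 79.1, 106.6 and 87.2 CPM. The log2 fold change of 1.59 (SE 0.27) was not called (adjusted p = 0.13), and without vehicle replicate 4, the library with hepatocyte markers unlike its group, it was 1.39 (SE 0.22) and was called (adjusted p = 0.00887). At 120 h Cpox was at 15.4, 25.8, 44.8 and 31.3 CPM in vehicle and at 62.9, 89.9, 117.9 and 89.9 CPM with TCDD. That difference of 1.58 (SE 0.30) had an adjusted p of 0.0531. At 48 h the log2 fold change was 1.40, a 2.65-fold rise that edgeR did not call. DESeq2 called Cpox at 48, 96 and 120 h as well (adjusted p = 0.031, 5.8e-05 and 8.7e-05). From 48 to 120 h the groups did not overlap at any hour, except at 48 h with library totals alone, and from 2 to 24 h they overlapped at each.

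**Figure D1:**
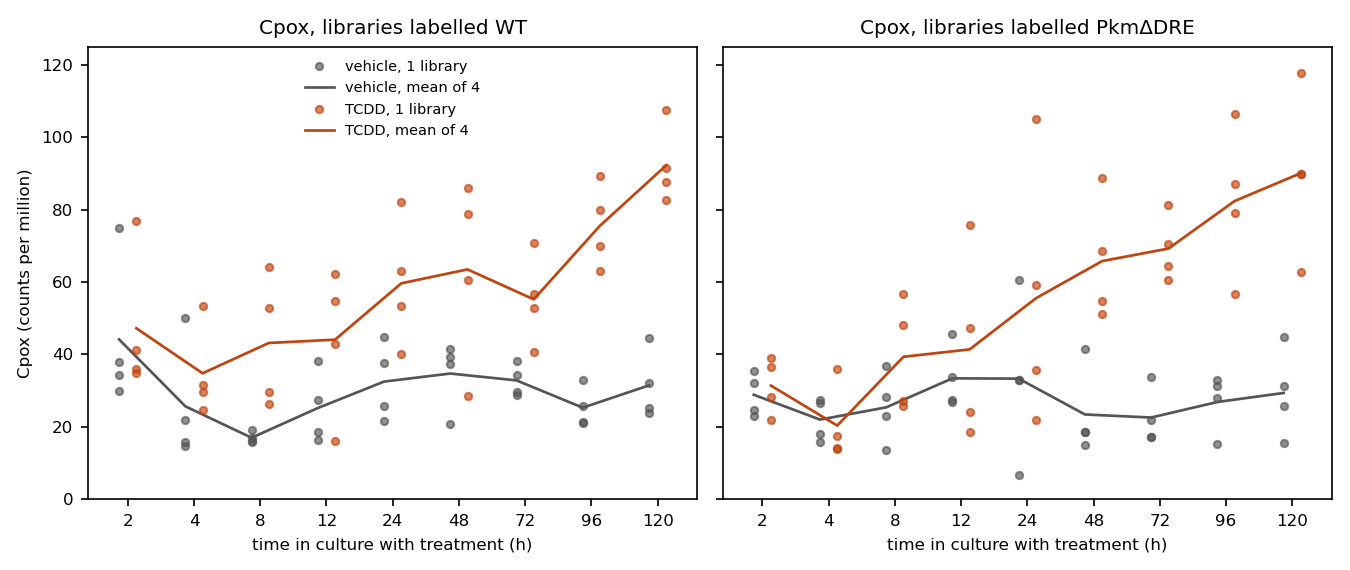
CPM of Cpox (vertical axis) by hour under treatment (horizontal axis, evenly spaced hours) for libraries labelled WT and PkmΔDRE, with points for single libraries and lines for means of 4. TCDD means climb to 92.3 CPM at 120 h under the label WT and to 90.1 CPM under the label PkmΔDRE, while vehicle means stay between 16.96 and 44.16 CPM.

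Markers of other cells moved with some of these calls. At 96 h under the label WT, 5 cholangiocyte markers summed to between 372 and 781 CPM with TCDD against 609 to 1331 CPM in vehicle, and 2 of the 5 were called lower. At the same hour and label 6 endothelial markers summed to 44.02 to 62.5 CPM with TCDD against 71.5 to 81.2 CPM in vehicle, with 3 of 5 tested called lower, and 6 macrophage markers to 48.8 to 62.03 against 63.7 to 89.7 CPM, with 2 called lower, and neither pair of ranges overlapped. At 72 h under the label PkmΔDRE the cholangiocyte sums were 407 to 706 CPM with TCDD and 941 to 1052 CPM in vehicle, with 1 of 5 called lower, and at 120 h under the label WT they were 317 to 532 and 581 to 1069 CPM with none called. Of the cholangiocyte markers, Spp1 reached 1204 CPM in its highest library of the series and the others 300 CPM or less. The cholangiocyte sums can therefore rest largely on Spp1. The part of all these markers in the Cpox difference was not tested.

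At 8 h under the label WT 4 of 9 members were called, Cpox higher and Alas1, Alad and Urod lower, against 37.4% of all genes at that hour. Over the 9 hours under the label WT, 8 of 81 tests of members were called, 3 higher and 5 lower, against 5.98% of all gene tests. All 3 calls upward were Cpox. For the label PkmΔDRE 1 of 81 was called, against 0.281%.

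Alas1, 5-aminolevulinate synthase, was at 645, 687, 625 and 644 CPM in vehicle at 8 h under the label WT and at 455, 397, 399 and 507 CPM with TCDD. Every TCDD library was below every vehicle library. The log2 fold change was -0.60 (SE 0.13, edgeR adjusted p = 0.00323), a 1.51-fold decrease that lies just past the fold threshold and fell short of it without vehicle replicate 2, TCDD replicate 2 or TCDD replicate 3. At the other 8 hours its log2 fold changes ran from -0.19 to 0.36 and none was called. The same contrast under the label PkmΔDRE had 459, 289, 402 and 473 CPM in vehicle and 543, 310, 418 and 413 CPM with TCDD, overlapping groups with a log2 fold change of 0.04 (SE 0.20). The core motif lay 222 bases before 1 annotated Alas1 start and 3 bases after the other, at chr9:106247938-106247962 on the minus strand.

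Alas1: ttcggcgcgcGCGTGcgcgcggcag

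Alad, aminolevulinate dehydratase, was lower with TCDD at 9 of 9 hours under the label WT and was called at 8 and 96 h. At 8 h it was at 93.02, 87.9, 80.2 and 70.8 CPM in vehicle and at 54.8, 63.04, 46.4 and 54.3 CPM with TCDD, a log2 fold change of -0.63 (SE 0.15, edgeR adjusted p = 0.00526). At 96 h vehicle libraries held 44.95, 38.8, 32.3 and 37.8 CPM and TCDD libraries 20.5, 21.5, 19.8 and 25.01 CPM. Neither pair of groups overlapped, and the TCDD libraries at 96 h lay close together. The difference at 96 h was -0.77 (SE 0.13, adjusted p = 0.00162), a 1.70-fold decrease. The call at 8 h fell under the fold threshold without vehicle replicate 1 or TCDD replicate 3. The call at 96 h was kept in 6 of 9 alternatives and lost when libraries were corrected for GC content (-0.53), in 1 fit of all hours per label (-0.81, adjusted p = 0.109) and when 1 surrogate variable, an estimated hidden factor, was added to that fit (-0.55, adjusted p = 0.38). Among libraries labelled PkmΔDRE Alad was lower at 6 of 9 hours with none called. At 96 h there it was at 86.04, 25.5, 35.8 and 130 CPM in vehicle and 41.8, 27.6, 36.2 and 29.4 CPM with TCDD, and its log2 fold change of -1.12 became -0.58 (SE 0.34) without vehicle replicate 4. Its core motif, at chr4:62520043-62520067 on the minus strand, was 148 bases before 1 start and 7 after the other.

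Alad: gccccgctcaGCGTGgatctggccg

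Urod, uroporphyrinogen decarboxylase, followed Alad at 8 h. Vehicle libraries labelled WT held 93.7, 98.6, 76.8 and 74.9 CPM and TCDD libraries 60.6, 61.2, 45.2 and 57.03 CPM, with no overlap. The log2 fold change was -0.65 (SE 0.16, edgeR adjusted p = 0.00596), and it fell short of the fold threshold without vehicle replicate 2 or TCDD replicate 3. At 96 h Urod was at 65.4, 65.8, 64.99 and 70.6 CPM in vehicle and at 40.5, 46.2, 49.9 and 48.1 CPM with TCDD. This difference of -0.47 (SE 0.08) had an adjusted p of 0.0021 but a fold change of 1.39, under the threshold. In libraries labelled PkmΔDRE no Urod test was called, and its values ran from -0.20 at 72 h to 0.67 at 12 h. Uros, uroporphyrinogen III synthase, was flat by comparison, with log2 fold changes from -0.16 to 0.16 under the label WT and from -0.11 to 0.33 under the label PkmΔDRE, and no promoter of Uros or Urod held the core motif.

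The libraries behind the 8 h calls differed in more than these genes. The share of read pairs that fell on no gene was 8.36 to 21.9% in the 4 TCDD libraries labelled WT at 8 h and 4.89 to 5.99% in their vehicle libraries. Of 6 macrophage markers 4 were called lower, with sums of 64.1 to 121.7 CPM with TCDD against 159 to 203 CPM in vehicle, and of 10 hepatocyte markers 2 were called higher and 3 lower. The members' GC content ran from 44.6% (Blvra) to 56.2% (Alad) around a median of 49.7% for the genes tested at this hour. After correction of every library for GC content, a step added once the data had been seen, Alas1, Alad and Urod had log2 fold changes of -0.28, -0.20 and -0.31 at 8 h and were not called, Blvra had -1.11 and was called, and Cpox kept its call at 0.96 (SE 0.22, edgeR adjusted p = 0.00816). Genes called higher and lower at 8 h numbered 2950 and 1690 as counted, and 1279 and 1204 after this step. With 1 surrogate variable in 1 fit per label, Alas1, Alad and Urod had values between -0.11 and -0.04 at 8 h and were not called. The part of these factors in the 8 h differences was not tested further.

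Ppox, protoporphyrinogen oxidase, and Fech, ferrochelatase, had no call at any single hour under either label. Ppox had log2 fold changes from -0.45 at 8 h to 0.19 at 72 h under the label WT and from -0.23 to 0.38 under the label PkmΔDRE, and no Ppox test at a single hour had an unadjusted p under 0.05. At 8 h under the label WT it was at 22.0, 15.96, 12.5 and 11.4 CPM in vehicle and 12.3, 10.1, 12.3 and 11.7 CPM with TCDD, groups that overlapped because vehicle replicate 4 was as low as the TCDD libraries. The exons of Ppox share 791 of 4515 bases (17.5%) with B4galt3 on the opposite strand, a gene at a median of 16.2 CPM. The counts were unstranded, so read pairs on the shared bases cannot be assigned by strand. The reverse complement of the core, in capitals, lay 14 bases before the Ppox start at chr1:171281186-171281210, minus strand.

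Ppox: gaaacgcagtCACGCaggccgccag

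Fech had the tightest libraries of the members, with a median coefficient of variation of 10.1% over the 36 groups. Its log2 fold changes ran from -0.07 to 0.14 under the label WT and from -0.17 to 0.25 under the label PkmΔDRE. At 96 h under the label PkmΔDRE, where it was highest, it was at 167, 154, 149 and 107.6 CPM in vehicle and at 191, 186, 179 and 147 CPM with TCDD. The groups overlapped through TCDD replicate 4, vehicle replicate 4 was the library with hepatocyte markers unlike its group, and the difference of 0.25 (SE 0.18) was not called.

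Under the label WT the log2 fold changes of the biliverdin reductases had opposite signs at 2, 12, 24, 48 and 120 h. They had the same sign at the other hours, and under the label PkmΔDRE at each hour except 72 h. Blvra was lower with TCDD at 7 of 9 hours under the label WT, with log2 fold changes from -0.47 at 8 h to 0.12 at 2 h and no call at a single hour. At 96 h it was at 13.2, 14.2, 10.2 and 11.9 CPM in vehicle and at 9.68, 10.1, 8.96 and 9.75 CPM with TCDD. The TCDD libraries were all just below the lowest vehicle library, an order lost with library totals alone, and the difference of -0.31 (SE 0.14) passed neither threshold. Its values under the label PkmΔDRE ran from -0.35 to 0.38.

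Blvrb, the second reductase, was called lower at 96 h under the label WT. Vehicle libraries held 115.4, 98.6, 132.9 and 142.9 CPM and TCDD libraries 49.9, 80.2, 95.5 and 81.5 CPM, and the groups did not overlap. The log2 fold change was -0.61 (SE 0.17, edgeR adjusted p = 0.0194), and it fell short of the fold threshold without vehicle replicate 3 (-0.58), vehicle replicate 4 (-0.55) or TCDD replicate 1 (-0.47). The call was kept in 4 of 9 alternatives. Besides the omission of vehicle replicate 3, it was lost with the covariate for pairs on no gene (-0.43, adjusted p = 0.22), in 1 fit per label (-0.66, adjusted p = 0.44), with 1 surrogate variable (-0.26, adjusted p = 0.95) and with the GC correction (-0.44, adjusted p = 0.069). At 8 h Blvrb had -0.53 (SE 0.15, adjusted p = 0.0151), a 1.44-fold decrease under the threshold. The largest difference of Blvrb under the label PkmΔDRE was a positive one at 12 h, with 126.6, 65.8, 134.3 and 107.99 CPM in vehicle and 374, 95.0, 376 and 213 CPM with TCDD. TCDD replicate 2 stayed within the vehicle range, and the log2 fold change of 1.25 (SE 0.41) was not called (adjusted p = 0.51). Single libraries of Blvrb stood far out in both treatments, such as 463 CPM in vehicle replicate 3 at 72 h under the label WT, where the other 3 held 103.8 to 146.7 CPM. The promoter of 1 annotated Blvrb start held the core at 2 places, the nearer 42 bases before that start. They lay at chr7:27447835-27447859 and chr7:27447926-27447950 on the plus strand. The promoter of the other start, at chr7:27452168-27452467, held none.

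Blvrb, first: cctagaagggGCGTGgcttctacgt
Blvrb, second: ccagcgggagGCGTGgtcgcctcgg

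**Figure D2:**
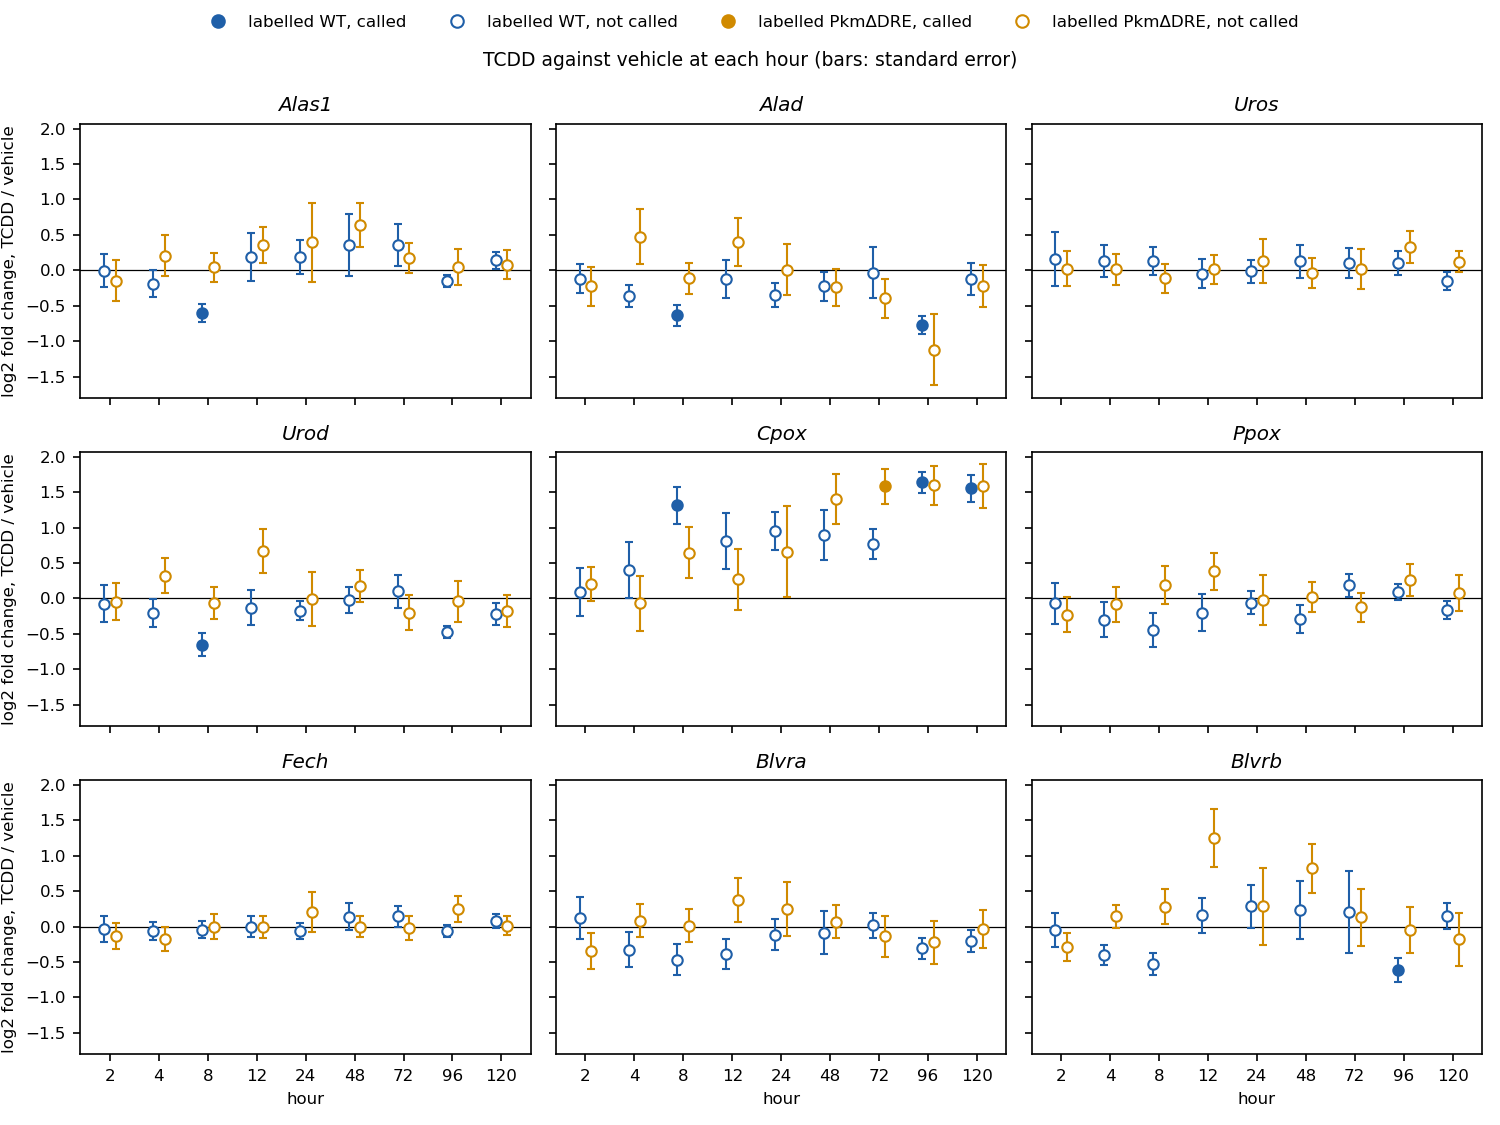
Log2 fold change of TCDD over vehicle (vertical axis) by hour (horizontal axis) for each of the 9 members, with bars of 1 standard error, blue for libraries labelled WT and orange for PkmΔDRE, filled where called. Cpox rises to about the same level under both labels at 96 and 120 h (1.64 and 1.56, 1.59 and 1.58), and the filled points below 0 belong to Alas1, Alad, Urod and Blvrb under the label WT.

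Averaged over the 9 hours in 1 model per label, 5 of 9 members were called under the label WT, against 33.1% of all genes. Cpox rose by 0.90 (SE 0.12, edgeR adjusted p = 1.34e-07). Alad fell by 0.35 (SE 0.08, adjusted p = 0.00162), Urod by 0.25 (SE 0.08, adjusted p = 0.00987), Blvra by 0.24 (SE 0.07, adjusted p = 0.0113) and Ppox by 0.18 (SE 0.07, adjusted p = 0.0354). The largest of these 4 decreases, that of Alad, was 1.27-fold. Alas1 (-0.01), Uros (0.02), Fech (-0.03) and Blvrb (-0.11) had averages near 0 and were not called. Without the libraries of 8 h only Cpox and Alad were called, with Urod at -0.18, Blvra at -0.20 and Ppox at -0.13. The call of Urod was also lost without 96 h (-0.21), and that of Ppox without 4, 24, 48 or 120 h (-0.15, -0.17, -0.15 and -0.16). Without the 4 libraries that Cyp1a1 set against their treatment labels the same 5 were called, Cpox at 0.95.

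Under the label PkmΔDRE Cpox alone was called, at 0.86 (SE 0.16, edgeR adjusted p = 1.59e-04), against 3.29% of all genes. The other 8 averages ran from -0.18 for Alad to 0.24 for Blvrb (SE 0.14, adjusted p = 0.51). Without the pair of vehicle libraries with deviating hepatocyte markers Cpox was at 0.85 (SE 0.16).

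**Figure D3:**
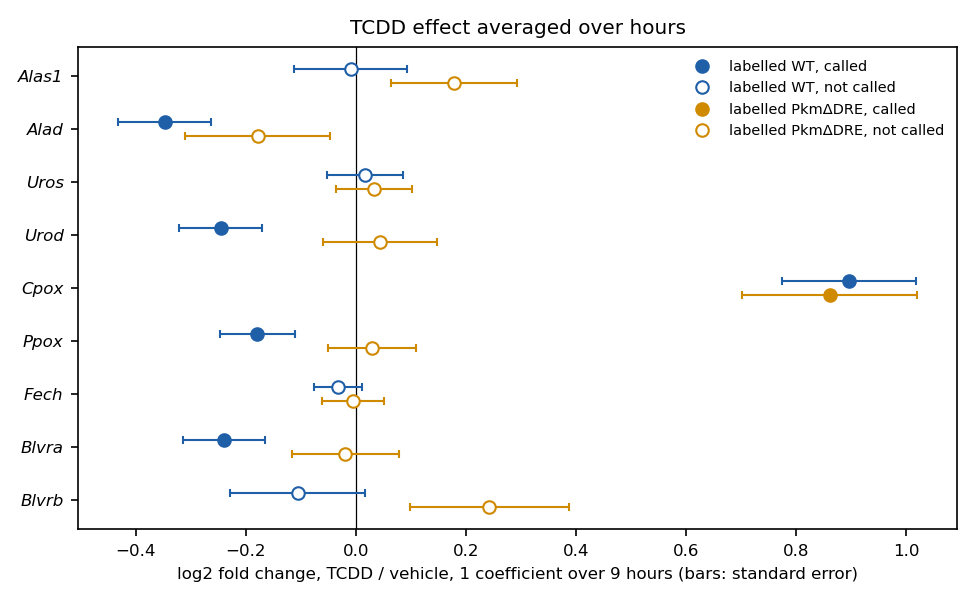
Log2 fold change of TCDD over vehicle averaged over the 9 hours (horizontal axis) for each member (vertical axis), with bars of 1 standard error, for libraries labelled WT (blue) and PkmΔDRE (orange), filled where called. Cpox lies at 0.90 and 0.86, apart from the 8 other members, which lie between -0.35 and 0.24.

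The difference between the labels in the response to TCDD was tested as an interaction. None of the 81 tests at single hours was called by edgeR or by DESeq2, 5 had an unadjusted p under 0.05, and 0.00160% of all gene tests were called. Those 5 were Blvrb at 4, 8 and 12 h (0.55, 0.68 and 1.09, PkmΔDRE minus WT), Alas1 at 8 h (0.52, SE 0.23, edgeR adjusted p = 0.31) and Cpox at 72 h (0.81, SE 0.33, adjusted p = 0.81). Alas1, Alad and Urod, which were called at 8 h under 1 label, were therefore not shown to differ between labels. Averaged over hours the interaction called 0 of 9 members by either tool, with 2 at an unadjusted p under 0.05 (Urod 0.30, SE 0.13, edgeR adjusted p = 0.41, and Ppox 0.22, SE 0.10, adjusted p = 0.47), against 0.239% of all genes. For Cpox the averaged interaction was -0.03 with an SE of 0.20, which leaves room for a difference of either sign.

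In vehicle libraries the labels differed most in Alas1. At 4 h it was at 646, 431, 515 and 475 CPM under the label WT and at 312, 275, 363 and 159 CPM under the label PkmΔDRE, and at 8 h at 645, 687, 625 and 644 against 459, 289, 402 and 473 CPM. The labels did not overlap at either hour. The 159 CPM at 4 h came from replicate 4, the library with hepatocyte markers unlike its group. At 2 h the labels overlapped in TMM-scaled CPM and not with library totals alone. The order was not kept at every hour. At 24 h the vehicle mean of Alas1 was lower for WT (135.9 CPM) than for PkmΔDRE (216.0 CPM). At 96 h these means were close, at 218.8 and 202.4 CPM. Averaged over hours the difference was -0.38 (PkmΔDRE minus WT, SE 0.12), not called (edgeR adjusted p = 0.11). None of the 9 members was called by edgeR or DESeq2, 1 (Alas1) had an unadjusted p under 0.05, and 0.542% of all genes were called. The other 8 members differed by between -0.10 and 0.12.

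Time in culture changed several members, and under the label WT Alas1 by the most between 2 and 24 h. In vehicle libraries labelled WT, Alas1 fell from 713, 506, 667 and 542 CPM at 2 h to 159, 134.2, 89.5 and 161 CPM at 24 h, with no library between. The log2 fold change was -2.39 (SE 0.21, edgeR adjusted p = 2.07e-06), a 5.25-fold decrease. Of the 9 members 6 were called lower between these hours, against 47.9% of all genes called in either direction. Besides Alas1 these were Alad (-1.58, SE 0.17), Fech (-0.85, SE 0.13), Urod (-0.75, SE 0.17), Blvrb (-0.71, SE 0.25) and Ppox (-0.61, SE 0.23). The calls of the last pair were lost without 2 h replicate 1 or 2 or 24 h replicate 1, 2 or 3, that of Blvrb also without 2 h replicate 4, with values from -0.99 to -0.49 for Blvrb and from -0.70 to -0.41 for Ppox. Cpox had -0.67 (SE 0.30) and was not called (adjusted p = 0.082).

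From 24 to 120 h under the label WT, Alad fell further, from 51.3, 51.7, 38.8 and 64.5 to 23.8, 35.02, 16.8 and 24.0 CPM. The highest library at 120 h was below the lowest at 24 h, although they overlapped when counts were divided by library totals alone, and the log2 fold change was -1.09 (SE 0.24, edgeR adjusted p = 0.0041). Blvra fell by 0.92 (SE 0.19, adjusted p = 0.00272) and Urod by 0.59 (SE 0.19, adjusted p = 0.0254), making 3 calls of 9, all lower, against 45.5% of all genes in either direction. Urod was not called without 24 h replicate 4 or 120 h replicate 1, 3 or 4, where its values ran from -0.52 to -0.48. Alas1 did not continue its decline, with -0.04 over this interval. Fech instead went down and came back, from a mean of 174 CPM at 2 h to 82.3 at 8 h and 159 at 48 h, with 72.7 to 88.2 CPM in the 4 libraries at 8 h and 142.4 to 190 CPM at 48 h.

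Under the label PkmΔDRE Alad was the single call in both intervals, -1.13 (SE 0.35, edgeR adjusted p = 0.0327) from 2 to 24 h and -1.47 (SE 0.44, adjusted p = 0.0478) from 24 to 120 h. The backgrounds were 30.7% and 15% of all genes. Between 2 and 24 h the median log2 fold change of all genes under this label was 0.36 with the TMM scaling of edgeR and 0.18 with RLE, the size factors of DESeq2, and the members' values are relative to that shift. The first call was lost without 2 h replicate 1, 3 or 4 or 24 h replicate 2 or 3, with values from -1.38 to -0.95 over the 8 fits that left out 1 library. The later one was kept in 2 of 8 such fits, those without 24 h replicate 2 or 3, with values from -1.76 to -1.19. Alas1 went from 511, 273, 505 and 352 CPM at 2 h to 402, 265, 72.5 and 124.8 CPM at 24 h, where replicates 1 and 2 were still within the earlier range, and its -0.96 was not called.

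**Figure D4:**
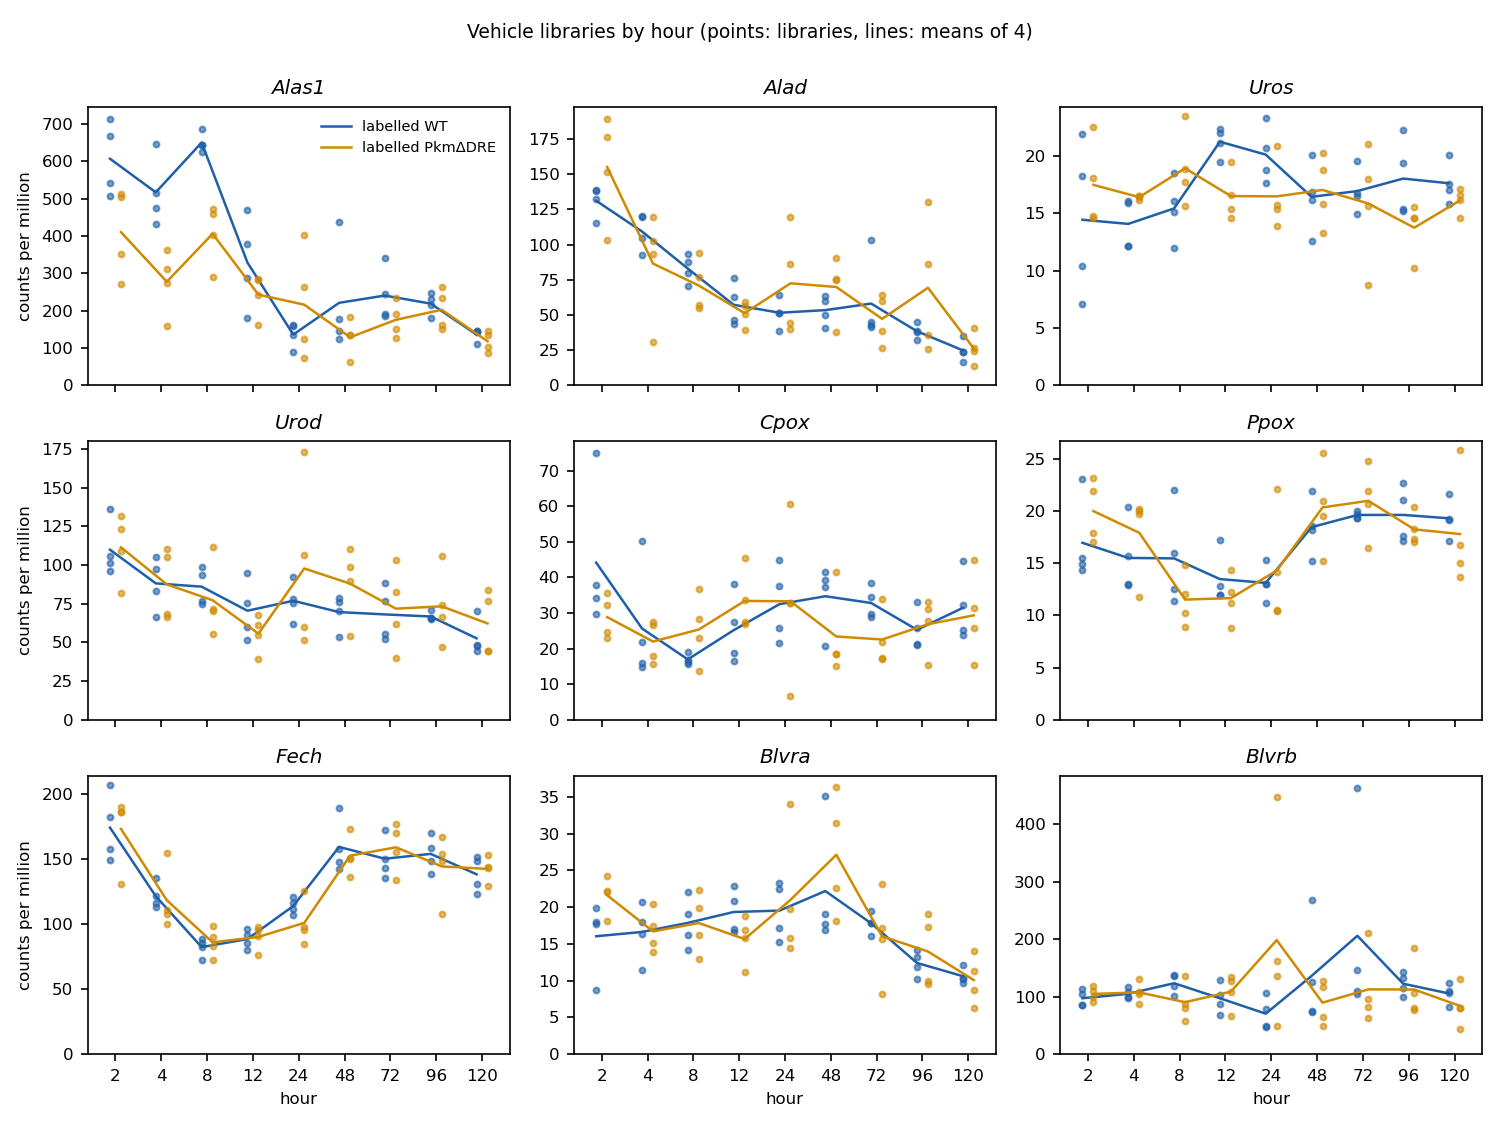
CPM (vertical axes, each from 0) by hour (horizontal axis) in vehicle libraries for each member, with points for single libraries and lines for means of 4, blue for the label WT and orange for PkmΔDRE. Alas1 drops between 8 and 24 h, from a mean of 650 to 135.9 CPM under the label WT, Alad falls from a mean of 131.1 CPM at 2 h to 51.6 at 24 h, stands at 58.1 at 72 h and is at 24.9 CPM at 120 h under that label, and Fech is lowest at 8 h (82.3 CPM under the label WT) and back at 159 CPM by 48 h.

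Markers of cell types moved with culture time. In vehicle libraries labelled WT, 10 hepatocyte markers summed to 125965 to 171462 CPM at 2 h, 26137 to 38752 at 24 h and 3012 to 16656 at 120 h, with 10 of 10 called lower by 24 h and 7 of 10 after it. Cholangiocyte markers summed to 55.7 to 140.8, 74.9 to 156 and 581 to 1069 CPM at the same hours, and stellate and fibroblast markers to 5.63 to 11.8, 7.71 to 9.23 and 24.7 to 200 CPM. The part of these shifts in the members' decline was not tested.

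The members did not share 1 pattern over the 36 groups. Of 36 pairs of members 20 had a positive Pearson r over the group means of log2 CPM, with a median r of 0.069, and over the 18 vehicle groups the median was 0.022. The points share culture time and library makeup, so these are descriptions. Alad and Urod ran most alike (r = 0.87), followed by Ppox and Fech (0.79) and by Alas1 and Alad (0.74). Cpox ran against Alad (-0.51), and over vehicle groups that r was -0.03.

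From 8197 genes with a mean of at least 10 CPM, the members, unnamed genes and predicted genes were set aside. Among those left, the nearest to Alas1 over the 36 group means were Irak2 (r = 0.89), Sec24d (0.89) and Sord (0.87). For Urod these were Ninj1 (0.95), Pfdn5 (0.95) and Atp5d (0.95). For Blvrb they were Fth1 (0.85), Gss (0.82) and Gstm4 (0.81).

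Genes around the pathway were read from 3 further lists. Of all genes, 5576 were called in the averaged fit under the label WT. That number was 1921 with the covariate for pairs on no gene and 2490 without 8 h. Calls of the listed genes were not followed through these alternatives. Of 16 genes of heme and iron transport and handling, 4 were called higher with TCDD averaged over hours under the label WT and 2 lower, with a median of -0.02 beside -0.003 for all genes. That is 6 of 16 where 33.1% of all genes were called, a share close to the background. Those higher included Abcb6 (0.75, SE 0.26), a porphyrin transporter at 0.941 CPM or less on average in every group, Clpx (0.48, SE 0.13), a mitochondrial chaperone that acts on the Alas1 enzyme, and the heme-binding Pgrmc1 (0.35, SE 0.12). Those lower included Tmem14c (-0.19, SE 0.08), which carries protoporphyrinogen in mitochondria. Under the label PkmΔDRE Pgrmc1 (0.40, SE 0.11, edgeR adjusted p = 0.0176) was the 1 call of 16.

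Of 7 regulators of Alas1, 5 were called higher and 1 lower under the label WT, with a median of 0.48, beside the same 33.1% of all genes. These were the nuclear receptor Nr1i3 (1.17, SE 0.35), present at 5.00 CPM or less on average in every group, the heme-sensing repressor Bach1 (0.61, SE 0.14), the corepressor Ncor1 (0.49, SE 0.13), the coactivator Ppargc1a (0.48, SE 0.19) and Foxo1 (0.27, SE 0.08), with Nr1i2 lower (-0.28, SE 0.10). Alas1 itself averaged -0.01. Of 5 genes that handle bilirubin, 3 were called higher against that background, namely the uptake transporter Slco1b2 (0.96, SE 0.31), the canalicular exporter Abcc2 (0.61, SE 0.15) and the conjugating enzyme Ugt1a1 (0.36, SE 0.14), with a median of 0.36. Under the label PkmΔDRE neither list had a call by edgeR, and 1 gene of each had an unadjusted p under 0.05.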

How the data were processed

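RNA-Seq libraries of cultured mouse hepatocytes were deposited as 1 table of gene counts per library. The authors made these counts with STAR on GRCm39, and the submitters' processing notes name FastQC 0.11.3, Trimmomatic 0.39, STAR 2.7 and DESeq2. The counts are raw read pairs per gene, and lines that name no gene, 16.8 to 48.0% of a library, were left out of library sizes. Groups came from the genotype, treatment and time labels. No column of another sample was present.

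Each comparison was fitted over all genes past the filter (edgeR 4.0.16 filterByExpr, count minimum 10, total minimum 15) with TMM scaling and the robust quasi-likelihood test in R 4.3.3, and p-values were adjusted by the Benjamini-Hochberg method over all genes tested. TCDD was compared with vehicle at each hour from the 8 libraries concerned, and averaged over hours in 1 model per label. Standard errors were derived from the F statistic. CPM were scaled by the TMM factors of all libraries together (0.572 to 1.52), and whether groups overlap was also read from library totals alone. Lengths per kb and exon overlaps came from GENCODE M21 on GRCm38, a build other than that of the counts. Promoters came from RefSeq on GRCm38.p6.

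All 9 members were named in every comparison. Of the other lists the genes called in an averaged fit were named, up to 6 a list, except some that are not reported here. The members and lists were chosen with earlier results of these data known. Alternatives were RLE scaling, no filter, DESeq2 1.42.0, a covariate for pairs that hit no gene, other fold thresholds, 1 fit per label, a surrogate variable (sva 3.50.0), a trend on GC content removed, and leaving out libraries or hours. The scripts were tested on simulated data.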

Additional observations from a re-analysis of the deposited data

Results flagged for a closer look

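In 22 of 324 groups (4 libraries of 1 member) a single library stood apart from the other 3 by Dixon's test, 6.79% where chance alone gives about 1 in 20. In the 2 h TCDD group labelled WT, the library with 1.15 CPM of Cyp1a1, replicate 4, was high for Urod (161 CPM against 78.5 to 91.1 CPM) and for Blvrb (138.7 CPM against 73.3 to 84.3 CPM). In the 48 h vehicle group labelled WT, the library with 3285 CPM of Cyp1a1, replicate 1, was high for Alas1 (438 CPM against 123.8 to 176 CPM). In the 72 h vehicle group labelled WT, replicate 3 was high for Blvrb (463 CPM against 103.8 to 146.7 CPM) and for Alad (103.1 CPM against 41.3 to 45.1 CPM).

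In the remaining groups the library apart was, for Alas1, WT vehicle at 120 h replicate 1 (110 CPM, others 143.7 to 145.5) and WT TCDD at 120 h replicate 3 (177 CPM, others 139.1 to 141.8). For Urod it was WT vehicle at 96 h replicate 4 (70.6 CPM), WT vehicle at 120 h replicate 2 (70.05 CPM) and PkmΔDRE TCDD at 72 h replicate 4 (68.02 CPM). Cpox had WT TCDD at 2 h replicate 3 (76.9 CPM), PkmΔDRE vehicle at 48 h replicate 2 (41.5 CPM) and PkmΔDRE TCDD at 4 h replicate 2 (35.9 CPM), each above the other 3. Ppox had WT vehicle at 2 h replicate 1 (23.03 CPM), WT vehicle at 12 h replicate 4 (17.3 CPM) and PkmΔDRE vehicle at 4 h replicate 2 (11.7 CPM, below the others). Fech had PkmΔDRE vehicle at 2 h replicate 2 (130.9 CPM, others 186 to 190). Blvra had WT vehicle at 48 h replicate 3 (35.1 CPM), WT TCDD at 4 h replicate 3 (11.2 CPM, below the others) and WT TCDD at 72 h replicate 2 (21.6 CPM). Blvrb had WT TCDD at 48 h replicate 1 (218 CPM) and PkmΔDRE TCDD at 8 h replicate 1 (162 CPM).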

How the results depend on the processing

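Calls of members over the 9 hours under the label WT numbered 8, 9 by DESeq2, 5 with 1 fit per label, 2 when 1 surrogate variable was added to it and 4 with the GC trend removed. Under the label PkmΔDRE 1 call became 2 with RLE scaling, 4 without a filter, 4 by DESeq2, 2 with the covariate of pairs on no gene, 3 in 1 fit per label with 1 surrogate variable, 2 with the GC trend removed and 2 without the vehicle libraries at 4 and 96 h replicate 4. The GC trend and this last omission were chosen after seeing the data. Of 5 averaged calls under the label WT, 1 (Cpox) remained with the covariate and 1 (Cpox) at a fold change of at least 1.5. Between 2 and 24 h under the label PkmΔDRE 1 call became 2 with RLE, 3 without a filter and 2 by DESeq2, and between 24 and 120 h it became 0 with RLE and 0 with the covariate. Under the label WT the 3 calls between 24 and 120 h became 0 with the covariate, where Urod changed sign to 0.00234.

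Leaving out 1 library at a time gave 5 to 10 calls over the hours under the label WT (5 without TCDD at 8 h replicate 3) and 1 to 2 under the label PkmΔDRE. For culture time it gave 4 to 6 and 2 to 4 calls under the label WT and 0 to 2 in both intervals under the label PkmΔDRE. Leaving out 1 hour gave 2 to 5 averaged calls under the label WT and 1 to 1 under the label PkmΔDRE. The interaction, hourly and averaged, and the vehicle difference gave 0 to 0. Cpox kept its calls at 96 and 120 h under the label WT in all 9 and 8 alternatives and in every fit without 1 library. At 8 h it lost the call with 1 surrogate variable (1.02, adjusted p = 0.18), and at 72 h under the label PkmΔDRE in 2 of 8 alternatives (1.59 and 1.41 beside 1.58). The cause was not tested for any of these changes. No paired analysis was possible because the labels give no replicate numbers. The numbers used here for libraries give only their order of listing. At 2 h under the label WT, 13.7, 14.5, 8.07 and 9.31% of read pairs were unmapped in vehicle libraries. With TCDD these shares were 12.7, 12.2, 7.44 and 10.4%, a similar order, which was not seen at 96 h. Blvrb at 12 h under the label PkmΔDRE was higher with TCDD at each place. Cpox was highest in replicate 3 of both treatments at 96 and 120 h under either label. Whether equal places mark 1 animal is not stated, and the effect of such pairing on the p-values was not tested. Depth was least in a library of 13588848 counts on genes.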
